A study of Mus musculus with 20 samples.

Results

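The Y complex is the building block from which the outer rings of the nuclear pore are assembled, and 9 of its genes were followed in 3T3-L1 cells that carried a hairpin against Tcf7l2. They were Nup107, Nup133, Nup160, Nup85, Nup37, Nup43, Seh1l, Sec13 and Ahctf1, taken by gene name from the 33581 genes listed, and all 9 were among the 16497 genes tested. Nup107 was chosen for its difference at day 2, so its day 2 values are a description without a test, and the other 8 genes were chosen as its partners in the complex. The samples were knockdown cells, which expressed from a lentivirus a hairpin that targets the Wnt pathway transcription factor Tcf7l2, and scrambled cells, which expressed a scrambled hairpin in the same way. 3T3-L1 is a mouse preadipocyte line that forms fat cells when induced. RNA was sequenced at days 0, 2, 4, 6 and 8 of differentiation from 2 libraries per hairpin and day, which gives 20 libraries in 10 groups. Both arms were mixed populations infected at a low passage and selected with puromycin, and a thiazolidinedione was not routinely part of the differentiation medium. The labels name 1 hairpin against Tcf7l2 for these libraries, so an effect of that hairpin or its insertion cannot be told apart from loss of Tcf7l2. The days of an arm may share 1 selected population, in which case the other days are not fully independent of day 2. Nothing in the labels says that the 2 libraries of a group are from separate cultures. The p-values then measure only how far these samples spread, which may be technical.

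Nuclear pores are the channels through which RNA and protein pass between nucleus and cytoplasm. Y-shaped complexes stack head to tail into rings on either face of the pore, and they also gather at kinetochores during mitosis. The complex is built early in pore assembly, both after division and in interphase, and its subunits are bound to each other for far longer than most other pore proteins. In the stem, Nup107 joins Nup133 to the hub of the complex, where Sec13 and Nup96 sit. The long arm holds Nup160 and Nup37, and the short arm holds Nup85, Nup43 and Seh1l. Ahctf1, also called Elys, brings the complex to chromatin. Nup96 is cut from the product of Nup98, so its messenger cannot be counted apart from that of Nup98.

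Totals ranged from 20153362 to 33973608 reads per library, and levels are given as RPM, the reads of a gene per 1000000 reads of its library. Tcf7l2, the silenced gene, had 12.2 to 23.4 RPM in the 10 knockdown libraries and 38.5 to 59.0 RPM in the 10 scrambled libraries, and the groups overlapped on no day. The summed level of 8 adipocyte markers ranged from 927 to 1743 RPM in knockdown cells and from 2813 to 13552 RPM in scrambled cells at day 8. Macrophage, endothelial and epithelial markers summed to at most 1.94, 1.12 and 0.0733 RPM in any library of either arm. Of these, the macrophage marker Adgre1 and the epithelial marker Epcam had no read in any library, which allows up to 3 reads per library. The 2 scrambled libraries of day 8 stood apart from each other: the difference between them had an SD across genes of 0.598 on the log2 scale, against 0.263 for the 2 knockdown libraries of that day.

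The windows around the starts of Nup107 and Nup133, the neighbours in the stem, are shown because the silenced factor binds DNA. Each runs from 250 bases before to 50 bases after the annotated start and was taken from RefSeq on GRCm38.p6. The Nup107 window lies at chr10:117792656-117792955 on the minus strand, and the Nup133 window at chr8:123949216-123949515 on the minus strand. Capitals mark the Tcf/Lef core CTTTGA.
Nup107: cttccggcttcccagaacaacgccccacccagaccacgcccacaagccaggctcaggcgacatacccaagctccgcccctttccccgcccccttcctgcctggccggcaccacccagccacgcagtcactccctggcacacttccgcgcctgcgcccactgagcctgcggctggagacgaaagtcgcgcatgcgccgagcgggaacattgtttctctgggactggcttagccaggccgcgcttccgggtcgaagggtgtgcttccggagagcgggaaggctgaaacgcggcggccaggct
Nup133: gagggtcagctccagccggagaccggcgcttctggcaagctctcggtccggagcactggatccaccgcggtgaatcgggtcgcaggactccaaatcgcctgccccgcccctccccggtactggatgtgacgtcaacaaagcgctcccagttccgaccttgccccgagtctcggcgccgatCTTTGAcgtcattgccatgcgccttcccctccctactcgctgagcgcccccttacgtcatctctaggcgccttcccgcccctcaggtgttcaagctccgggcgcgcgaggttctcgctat
The window of Nup133 held 1 copy of CTTTGA and that of Nup107 held none. A window was found for 6 of the 9 members, and Nup160 was the other one with a match, on the opposite strand. Searched on both strands, CTTTGA was in 5257 of 32851 windows of the same length. The E2F motifs TTTCCCGC and TTTGGCGC, read on both strands, were in 1.07% and 0.514% of the windows and in none of the 6. A match is only a description of these letters, and its absence says nothing about binding.

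Nup107 was higher in knockdown cells, and the gap between the arms was wider at each later day, while most of its partners in the complex differed little. At day 0 Nup107 (ENSMUSG00000052798.6, chromosome 10) had 138 and 137 RPM in the knockdown libraries, against 77.8 and 91.4 RPM in the scrambled libraries. At day 2, the day it was chosen on, it had 186 and 194 RPM in knockdown cells, against 71.8 and 89.6 RPM in scrambled cells. The arms were thus separate before induction and remained so. At day 4 the values were 204 and 162 RPM in knockdown cells, against 62.2 and 63.8 RPM in scrambled cells. At day 6 they were 206 and 213 RPM in knockdown cells, against 68.4 and 51.0 RPM in scrambled cells. At day 8 they were 211 and 219 RPM in knockdown cells, against 64.7 and 46.9 RPM in scrambled cells. The lowest knockdown library, with 137 RPM, lay above the highest scrambled library, with 91.4 RPM. Both knockdown libraries were above both scrambled ones on each day. Over days 0, 4, 6 and 8 alone, which did not choose the gene, that order held for 816 of the 16497 genes tested (4.95%).

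**Figure D1:**
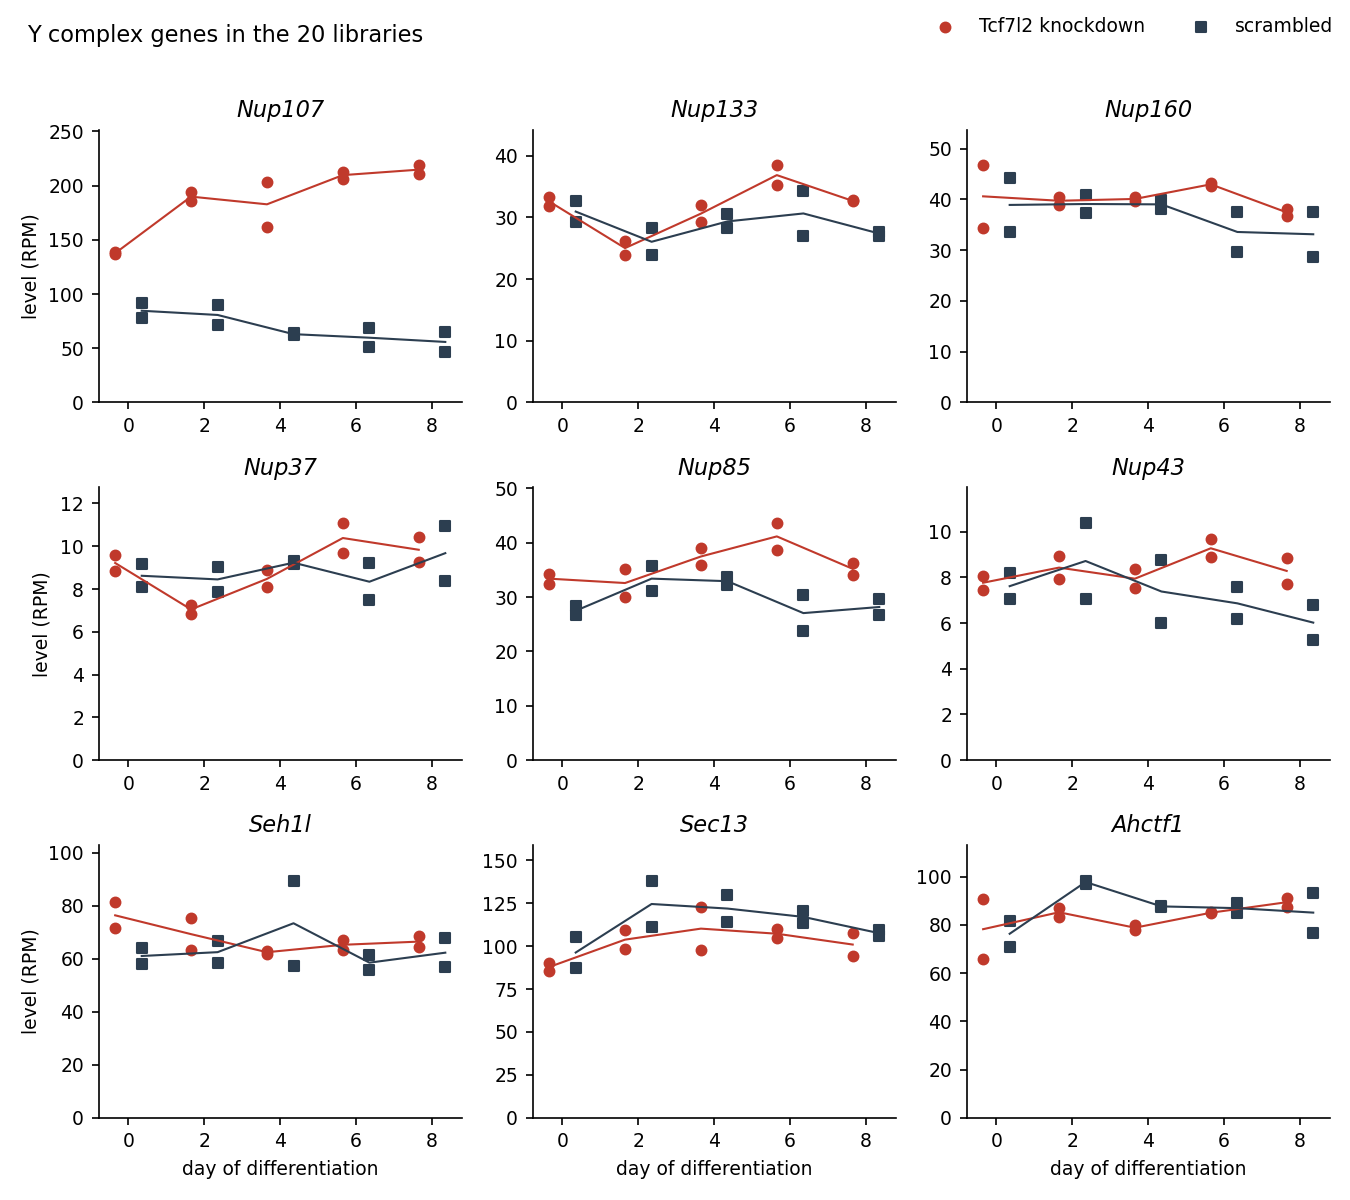
Level of each of the 9 Y complex genes in RPM (vertical axis, from 0) against the day of differentiation (horizontal axis), with 1 point per library, knockdown left of scrambled at each day, and lines through the group means of 2 libraries. The Nup107 points of the arms do not overlap on any day, with knockdown libraries at 137 RPM or more and scrambled ones at 91.4 RPM or less. In the other panels the arms lie closer together, and the highest ratio of group means there is that of Nup85 at day 6, with 1.52.

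The ratio of the group means of Nup107, knockdown over scrambled, was 1.63, 2.35, 2.90, 3.51 and 3.85 on the 5 days in order. On the deposited log2 scale, which compresses changes, the differences were 0.66, 1.18, 1.47, 1.74 and 1.87 (SE 0.155 each). The difference did not pass at day 0 (limma adjusted p = 0.136), when 0.224% of genes were called. With limma, Nup107 rose at day 4 (adjusted p = 0.000514, with 1.61% of genes called). It also rose on day 6 (0.000282, with 4.12% called) and on day 8 (0.000104, with 5.75% called). For each gene these tests share 1 spread over the 10 groups, and in a fit of each day's table alone the same differences had limma adjusted p of 0.0507 at day 6 and 0.336 at day 8. In knockdown cells both libraries were higher than both scrambled ones on each of these days. Without the 3 scrambled libraries numbered 2 of days 4, 6 and 8, the day 0 difference was unchanged at 0.66, and only the spread it was tested against changed.

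The average difference over days 0, 4, 6 and 8, which leaves out the day Nup107 was chosen on, was 1.43 (SE 0.144, limma adjusted p = 2.58e-05, 8 libraries per arm). By p-value it stood at place 65 of the 16497 genes, of which 19.2% were called. In 16 fits that each left out 1 library it ranged from 1.37 to 1.53. Whether the difference itself changed between those 4 days was tested across all genes, and 0 of 16497 passed with limma, against 518 at an unadjusted p under 0.05. Nup107 had the lowest limma adjusted p of the 9 members there (0.572), so its widening gap did not pass over the whole table. Markers of fat cells moved over the same days. The 8 adipocyte markers summed to 50.6 to 70.0 RPM in knockdown cells and 83.7 to 99.7 RPM in scrambled cells at day 0. These sums and the Nup107 libraries were thus both separate at day 0. At day 6 they summed to 1396 to 2441 RPM in knockdown cells and 5254 to 11761 RPM in scrambled cells. The 6 preadipocyte or fibroblast markers summed to 9891 to 12908 RPM in knockdown cells and 4527 to 8709 RPM in scrambled cells at day 6. Taken singly, these 6 differed by -0.46 to 2.02 on the deposited log2 scale that day, and 1 was called with limma, beside 4.12% of all genes. At day 0 their sums overlapped, with 8261 to 12895 RPM in knockdown cells and 9285 to 15322 RPM in scrambled cells. The part of both marker lists in the Nup107 difference was not tested, and in bulk RNA fewer cells of a type and less RNA per cell cannot be told apart.

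Among the 8 partners, the ratio of the group means ran from 0.833 (Sec13 at day 2) to 1.52 (Nup85 at day 6). None was called at days 0, 2, 4 or 8 with limma, and 1 of 8, Nup85, was called at day 6. Of all genes, 0.224%, 0.267%, 1.61%, 4.12% and 5.75% were called at days 0, 2, 4, 6 and 8 in order. Counts of 0 of 8 lie near these shares, so they say little about the partners. Nothing is read from day 2, since that contrast chose Nup107. On average over days 0, 4, 6 and 8, again 1 of 8 was called, beside 19.2% of all genes. The median average difference of the 8 was 0.09, and that of all genes was 0.00. By levels alone, both knockdown libraries of day 0 lay above both scrambled ones in 2 of the 8 partners (18.9% of all genes) and below in 0 (14.6%). They lay above in 0 of 8 and below in 3 at day 2 (20.7% and 24.3% of all genes). For day 4 the counts were 1 above and 2 below (19.7% and 21.7%), for day 6 they were 6 above and 1 below (28.5% and 25.2%), and for day 8 they were 3 above and 0 below (23.9% and 21.4%). Day 6 was thus the day on which the most partners stood above in RPM. Some of these orders depend on the scale. On the deposited log2 values Seh1l overlapped at day 6 (10.72 and 10.82 in knockdown cells, against 10.53 and 10.78 in scrambled cells). Ahctf1 lay below at day 6 on that scale (11.12 and 11.15 in knockdown cells, against 11.18 and 11.23 in scrambled cells). There Sec13 also overlapped at day 2, and Nup160 stood above at day 4.

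**Figure D2:**
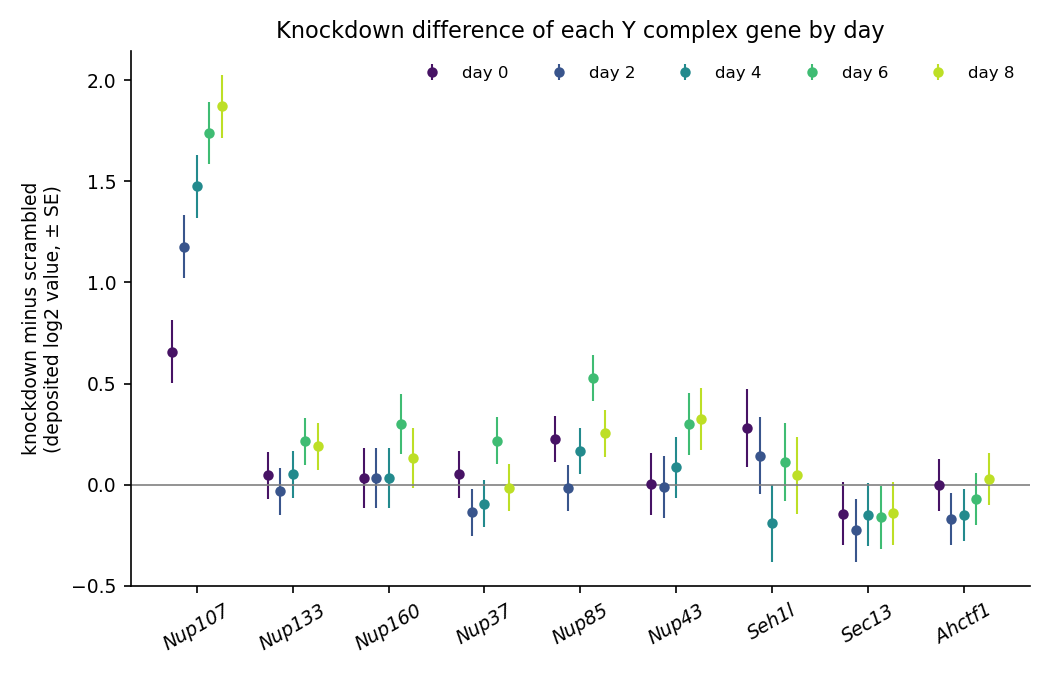
Knockdown minus scrambled difference of the 9 Y complex genes on the deposited log2 scale (vertical axis), with 1 point per day coloured by day and bars of ± 1 SE from the limma fit. Nup107 runs from 0.66 at day 0 to 1.87 at day 8, and the other 8 genes lie between -0.23 and 0.53.

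In the stem, Nup133, the direct partner of Nup107 and the subunit that links one Y to the next, had 32.7 and 32.6 RPM in knockdown cells at day 8, against 27.7 and 27.1 RPM in scrambled cells. The 2 groups did not overlap at days 6 and 8 and did at the other 3 days. Its average difference was 0.13 (SE 0.0557) and did not pass (limma adjusted p = 0.120). Reads of Nup133 could include those of Gm29773 and Gm45890, whose exons overlap it on GRCm38, since the kit as named does not record strand.

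In the long arm, Nup160, a scaffold subunit that reaches the adjoining ring, had 42.7 and 43.3 RPM in knockdown cells at day 6, against 37.5 and 29.7 RPM in scrambled cells. In RPM its groups overlapped on the other 4 days. The average difference was 0.12 (SE 0.0764, limma adjusted p = 0.257), and with replicate number as a block the day 6 difference of 0.30 passed (limma adjusted p = 0.0488). Nup37, a small propeller protein held by Nup160, was the lowest of the 9 per kilobase. It had 6.84 and 7.25 RPM in knockdown cells at day 2, against 7.86 and 9.04 RPM in scrambled cells. At day 6 it had 9.67 and 11.1 RPM in knockdown cells, against 9.20 and 7.48 RPM in scrambled cells. The arms thus stood in opposite order at these days, and the average difference was 0.04 (SE 0.0631, limma adjusted p = 0.674).

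In the short arm, Nup85, the scaffold subunit that holds that arm to the hub, was the one partner that rose. At day 0 it had 32.4 and 34.3 RPM in knockdown cells, against 26.6 and 28.3 RPM in scrambled cells. At day 6 it had 38.6 and 43.6 RPM in knockdown cells, against 30.3 and 23.8 RPM in scrambled cells. Its knockdown libraries were above its scrambled libraries at days 0, 4, 6 and 8, and the groups overlapped at day 2. The average difference was 0.29 (SE 0.0620, limma adjusted p = 0.00592), and it was 0.25 to 0.32 with each of 16 libraries left out. The day 6 difference was 0.53 (SE 0.115, limma adjusted p = 0.0237), and that call ended without knockdown library 1, knockdown library 2 or scrambled library 2 of day 6. Nup43, another propeller protein, had 7.72 and 8.85 RPM in knockdown cells at day 8, against 6.78 and 5.26 RPM in scrambled cells. Its average difference of 0.18 (SE 0.0756) did not pass (limma adjusted p = 0.107), but did without scrambled library 2 of day 4 (0.22, limma adjusted p = 0.0445).

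Seh1l, a propeller protein that also serves in a regulator of mTORC1 signalling, had 71.4 and 81.3 RPM in knockdown cells at day 0, against 57.9 and 64.2 RPM in scrambled cells. At day 6 it had 63.5 and 67.1 RPM in knockdown cells, against 55.7 and 61.3 RPM in scrambled cells. In RPM both knockdown libraries were thus above both scrambled ones on these 2 days, and the groups overlapped on the other 3. At day 4 it had 63.1 and 61.9 RPM in knockdown cells, against 57.3 and 89.5 RPM in scrambled cells. The scrambled library with 89.5 RPM was the highest of all 20 for this gene. The average difference was 0.06 (SE 0.0991, limma adjusted p = 0.683). Without the 3 late scrambled libraries numbered 2, which include that one, it was 0.23. That setting kept the late knockdown libraries numbered 2, so same-numbered libraries no longer matched across the arms. Exons of 4930549G23Rik overlap those of Seh1l on GRCm38.

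At the hub, Sec13, which is also a coat subunit of vesicles that leave the endoplasmic reticulum, was the partner with the lowest average difference. It had 98.1 and 110 RPM in knockdown cells at day 2, against 111 and 138 RPM in scrambled cells. Group means were lower in knockdown cells on all 5 days, and in RPM the libraries did not overlap at days 2 and 6. The average difference was -0.15 (SE 0.0674, limma adjusted p = 0.128). With replicate number as a block it was also -0.15 and passed (limma adjusted p = 0.0227), which makes 2 of 8 partners called under the block, in opposite directions. Ahctf1 had 83.3 and 87.1 RPM in knockdown cells at day 2, against 97.1 and 98.3 RPM in scrambled cells, and at day 4 it had 79.8 and 77.8 RPM in knockdown cells, against 87.9 and 87.4 RPM in scrambled cells. On the other 3 days its groups overlapped in RPM, and the average difference was -0.05 (SE 0.0644, limma adjusted p = 0.614). Exons of Gm10518 and Kif28 overlap those of Ahctf1.

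The ratio of Nup107 to each partner was then compared within the same libraries, which sets the whole complex on 1 scale. Over days 0, 4, 6 and 8 the log2 ratio was higher in knockdown cells for all 8 partners, by 1.16 for Nup85 (SD 0.518 over the 4 days) up to 1.63 for Sec13 (SD 0.555). For Nup133 it was higher by 1.34, for Nup160 by 1.34, for Nup37 by 1.43, for Nup43 by 1.24, for Seh1l by 1.41 and for Ahctf1 by 1.53. In each of the 8 ratios, both knockdown libraries lay above both scrambled libraries on 4 of 4 days. Each gave p = 0.00154 in an exact permutation test, two-sided and within days, and 0.00154 after adjustment over the 8 ratios. This is the smallest p that 1296 arrangements can give. With swaps only within pairs of same-numbered libraries, each gave p = 0.00781 in an exact permutation test (two-sided, also 0.00781 after adjustment), the smallest that 256 arrangements can give. Since Nup107 is the numerator of all 8, the ratios are not independent of each other.

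Per kilobase of exon, the order of the members differed between the arms at its top. The means include the day 2 libraries on which Nup107 was chosen, so its place is a description. In knockdown cells Nup107 came first with 48.6 ± 7.97 RPKM, above Sec13 with 32.0 ± 3.45 RPKM (SD over 10 libraries). In scrambled cells Sec13 came first with 35.6 ± 4.40 RPKM, above Nup107 with 17.9 ± 3.79 RPKM. The other 7 kept the same order in both arms. Seh1l had 16.5 ± 1.54 RPKM in knockdown cells and 15.4 ± 2.44 RPKM in scrambled cells, Nup85 had 10.6 ± 1.13 RPKM in knockdown cells and 8.80 ± 1.06 RPKM in scrambled cells, and Ahctf1 had 5.51 ± 0.495 RPKM in knockdown cells and 5.74 ± 0.573 RPKM in scrambled cells. Nup160, Nup133, Nup43 and Nup37 followed, with means of 4.59, 4.49, 3.26 and 2.70 RPKM in knockdown cells and 4.20, 4.11, 2.86 and 2.66 RPKM in scrambled cells. In scrambled cells Nup107 and Seh1l lay within 1 SD of each other, as did Nup160 and Nup133 in both arms and Nup43 and Nup37 in scrambled cells. Levels per kilobase use exon lengths of GENCODE M21, which may not be the annotation of the counts.

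Within each arm, later days were compared with day 0 on recovered reads, and the 4 comparisons of an arm share the day 0 libraries. In knockdown cells Nup107 was higher at day 2 than at day 0 by 0.60 (SE 0.169, limma adjusted p = 0.0289), the one member of 9 called there, beside 15.3% of all genes. Nup107 was chosen on those day 2 libraries, which favours this call, so the value is a description only. With replicate number as a block the value was 0.55 and did not pass (limma adjusted p = 0.0733), while Ahctf1 did (0.42, 0.0329). The Nup107 call also ended without any 1 of the 4 knockdown libraries compared (limma adjusted p = 0.0851 to 0.157). At days 4, 6 and 8 the knockdown differences from day 0 were 0.49, 0.63 and 0.67 (limma adjusted p = 0.162, 0.129 and 0.108), and no member was called, beside 3.10%, 0.582% and 0.673% of genes. With the block those of day 6 (0.74, limma adjusted p = 0.0472) and day 8 (0.79, 0.0426) passed.

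In scrambled cells Nup107 differed from day 0 by 0.02, -0.35, -0.48 and -0.57 at days 2, 4, 6 and 8. The day 8 value passed (SE 0.161, limma adjusted p = 0.0413), the one member of 9 called there, beside 10.5% of genes. With the block it was -0.45 and did not pass (limma adjusted p = 0.136), while Ahctf1 did (0.39, 0.0471). The Nup107 call also ended in 11 of the 20 fits that each left out 1 library, and without scrambled library 2 of day 8 it was -0.41 (limma adjusted p = 0.372). Ahctf1 was higher at day 2 than at day 0 in scrambled cells by 0.45 (SE 0.135, limma adjusted p = 0.0272), the one member called, beside 24.6% of genes. That call ended without scrambled library 1 of day 0 (0.33, limma adjusted p = 0.178) or either scrambled library of day 2 (0.48 and 0.43, limma adjusted p = 0.0822 and 0.142). With the block 2 members were called at day 2, Ahctf1 (0.59, limma adjusted p = 0.00648) and Sec13 (0.42, 0.0282). None was called at days 4 and 6 (13.8% and 18.0% of genes), while with the block Ahctf1 was at day 4 (0.44, limma adjusted p = 0.0323), and Ahctf1 and Sec13 were at day 6 (0.38 each, 0.0430 and 0.0453). The test of changed differences between days 0, 4, 6 and 8 called no member, and whether the arms differ in the step to day 2 was not tested.

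Beyond the Y complex, the rest of the pore differed little between the arms. Of 22 other nuclear pore genes 21 were tested, and 1 was called on average over days 0, 4, 6 and 8, beside 19.2% of all genes. It was Nup93, a scaffold of the inner ring, with 0.29 (SE 0.0812, limma adjusted p = 0.0256). Nup93 had 55.1 ± 7.74 RPM in knockdown cells and 37.8 ± 6.57 RPM in scrambled cells at day 8 (SD, n = 2 each). Nup98, which also encodes the hub subunit Nup96, had 91.2 ± 0.693 RPM in knockdown cells and 79.6 ± 16.6 RPM in scrambled cells at day 8 (SD, n = 2 each), and its average difference was 0.08 (limma adjusted p = 0.507). The median of the 21 was 0.04, with a range of -0.22 to 0.29 that lies wholly below the Nup107 value of 1.43.

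**Figure D3:**
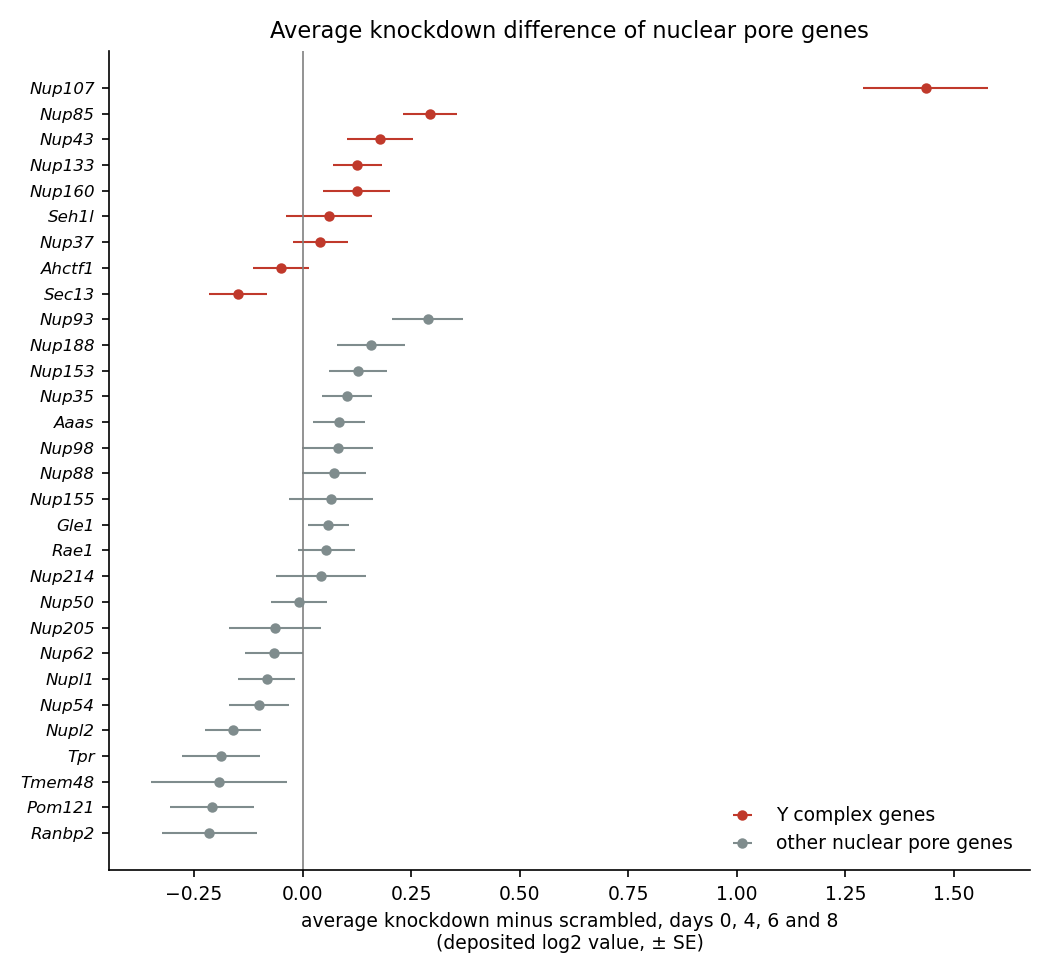
Average knockdown minus scrambled difference over days 0, 4, 6 and 8 on the deposited log2 scale (horizontal axis, bars ± 1 SE) for the 9 Y complex genes and 21 other nuclear pore genes (vertical axis). Nup107 at 1.43 lies to the right of the other 29 genes, which lie between -0.22 and 0.29.

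Pore subunits are made as cells grow and divide, so transport and division genes were set beside them. Of 16 nuclear transport genes 0 were called on average with limma, beside 19.2% of all genes. The smallest adjusted p was that of the importin Kpnb1 (0.26, SE 0.0887, unadjusted p = 0.0111, limma adjusted p = 0.0541). Of 16 cell division genes 1 was called on average, beside the same 19.2%. It was Pcna, the sliding clamp of DNA replication (0.26, SE 0.0844, limma adjusted p = 0.0475), and the median of the list was 0.21. The summed level of the division genes was 314 and 470 RPM in knockdown cells at day 0, against 329 and 518 RPM in scrambled cells. At day 8 it was 715 and 548 RPM in knockdown cells, against 685 and 293 RPM in scrambled cells. The groups overlapped at these days and at days 2 and 4. At day 6, when Nup85 was called and 6 of 8 partners stood above in RPM, the groups did not overlap. They had 647 and 761 RPM in knockdown cells, against 566 and 319 RPM in scrambled cells. The differences of the 16 division genes at day 6 ran from 0.20 to 0.95 with a median of 0.69. Of these genes 0 were called with limma, beside 4.12% of all genes. The part of cell division in the differences of Nup107 and its partners was not tested.

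Genes beside Nup107 on chromosome 10, the 10 nearest tested on each side, were also examined, as a list set with earlier results of these data known. Of these 20 genes 8 were called on average, all 8 higher. Of all 16497 genes 19.2% were called in either direction, and 1591 were called higher. On GRCm38 Nup107 lies on the minus strand at chr10:117750621-117792705. The gene most different among the 20 was Yeats4, a reader of acetylated histones, which lies 526 kb away with 6 tested genes between. It had 96.0 and 76.0 RPM in knockdown cells at day 0, against 58.6 and 55.0 RPM in scrambled cells, and at day 8 it had 119 and 139 RPM in knockdown cells, against 42.3 and 45.2 RPM in scrambled cells. Its groups did not overlap on any day, and its average difference was 1.11 (SE 0.115, limma adjusted p = 3.35e-05). Hmga2, an architectural chromatin protein, was higher by 0.92 (SE 0.266, limma adjusted p = 0.0291), Rap1b, a small GTPase, by 0.49, the chaperonin subunit Cct2 by 0.48, the cleavage factor Cpsf6 by 0.48, Msrb3 by 0.46, Mdm1 by 0.40 and Frs2 by 0.30 (largest limma adjusted p = 0.0292). Hmga2 lies 2569 kb and Msrb3 2988 kb from Nup107, while the last gene on the other side, Lrrc10, lies 704 kb away.

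The genes next to Nup107 did not share its difference on both sides. Slc35e3, 4.26 kb away, had 1359 and 1580 RPM in knockdown cells at day 8, against 1592 and 1772 RPM in scrambled cells, and averaged -0.20 (SE 0.0749, limma adjusted p = 0.0753). Mdm2, which targets p53 for degradation and lies 39.9 kb away, had 2840 and 3132 RPM in knockdown cells at day 8, against 3296 and 2833 RPM in scrambled cells, and averaged 0.00 (limma adjusted p = 0.997). Rap1b, on the other side at 21.2 kb, was the nearest called. Around the other 8 members, between 2 and 8 of the 20 neighbours were called: 7 lower and 1 higher around Sec13, 5 higher and 2 lower around Nup133, and 4 higher around Nup85. The median average difference was 0.14 for the neighbours of Nup107 and 0.00 for all genes.

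**Figure D4:**
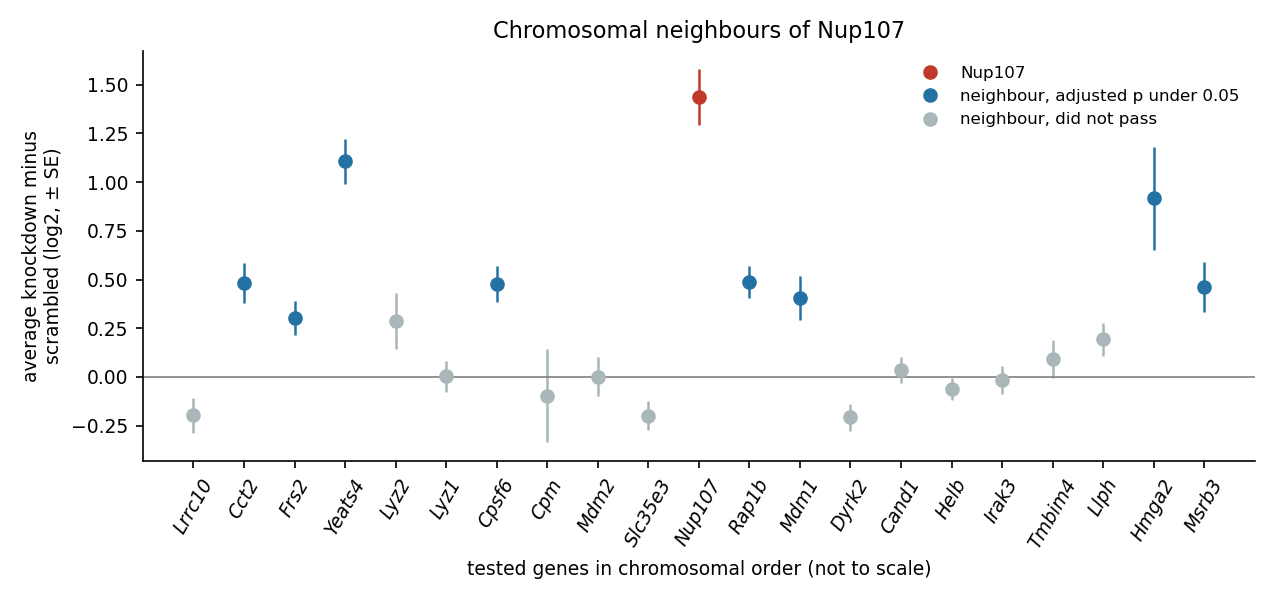
Average knockdown minus scrambled difference over days 0, 4, 6 and 8 on the deposited log2 scale (vertical axis, bars ± 1 SE) for Nup107 and the 10 nearest tested genes on each side, in chromosomal order and not to scale (horizontal axis). Yeats4 at 1.11 and Hmga2 at 0.92 come closest to Nup107 at 1.43, and the directly adjoining Slc35e3 lies at -0.20.

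Yeats4 was also the gene with the pattern most like Nup107 over the 20 libraries, with a Pearson correlation of 0.970 in log2(RPM + 1), as a description. The next 7 were Ptprq, Il18, Prkd1, Ndn, Bche, Naip1 and Dmd, from 0.935 down to 0.911. The points share hairpin, day and library, and fall into 2 clusters by hairpin, so these values mostly order genes that differ between the arms. Of the partners, Nup85 came nearest with 0.730 at place 361 of 16496, and Sec13 had -0.34. Tcf7l2 had -0.91, near the other end at place 16493. With values centred within each day, Slc38a1 came first with 0.981 and Yeats4 was at place 2 with 0.975. Yeats4 and Il18 were the 2 genes that stayed among the first 8.

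**Figure D5:**
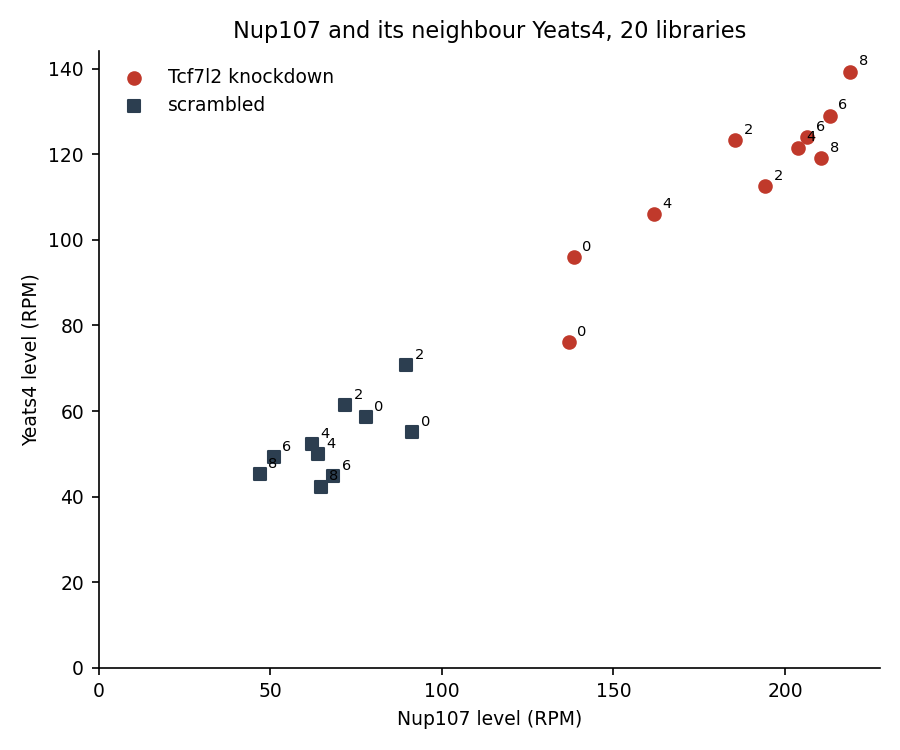
Level of Yeats4 (vertical axis, RPM) against Nup107 (horizontal axis, RPM) in the 20 libraries, with the day beside each point. The knockdown libraries lie at 137 to 219 RPM of Nup107 and 76.0 to 139 RPM of Yeats4, apart from the scrambled libraries at 46.9 to 91.4 RPM and 42.3 to 70.7 RPM.

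The authors' deposited table gave Nup107 a log2 fold change of 0.56, 1.11, 1.40, 1.67 and 1.77 at days 0, 2, 4, 6 and 8. The adjusted p for Nup107 in the authors' deposited table was 0.0863 before induction, and 1.10e-08, 3.30e-10 and 1.54e-08 on days 4, 6 and 8. Of the 8 partners in the authors' deposited table, 0 had an adjusted p under 0.05 on any day, and the lowest was that of Nup85 at day 6, with 0.237. The share of all genes that passed there was not counted, so nothing about the partners is read from that 0.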

How the data were processed

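RNA-seq of 20 libraries of 3T3-L1 cells was taken from 5 deposited tables, 1 per day. Libraries were made with the TruSeq kit, per the labels. The submitters' processing notes name TopHat2 2.0.13, Bowtie2 2.2.3.0, SAMtools, DESeq2 1.10.1 and the build mm9. The read counter, its annotation and its use of strand are not given in the sources used here. For each library the authors deposited log2 values after variance stabilisation, made table by table. Beside these the authors deposited each gene's mean signal in a table (its mean normalised count), log2 fold changes with standard errors, a test score and p-values. Read counts behind the deposited log2 values were recovered by inverting the transformation, and 100% of the values up to 100 reads came within 0.02 of a whole number. RPM are recovered reads scaled to a library of 1000000. No per-library column was left unused.

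Arms were compared on the deposited log2 values by limma 3.58.1 under R 4.3.3, with statmod 1.5.0, a fitted trend, robust estimation and 10 residual degrees of freedom. The average effect used day as a factor, 16 libraries and 11 residual degrees of freedom. Days were compared within an arm with limma voom on recovered reads, scaled by median-of-ratios size factors. A gene entered if its mean normalised count reached 10 in any table, which left 16497, and Benjamini-Hochberg adjustment ran over all of them, with calls at an adjusted p under 0.05. Scripts were tested on simulated data.

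The members, lists and neighbours were chosen with earlier results of these data known. The named genes were the members, Tcf7l2, called neighbours of Nup107, the 8 genes most like it, and those with the smallest adjusted p in the pore, transport and division lists (up to 4 a list, of which 1 each is given), and Nup98 was added as the source of Nup96. Gene order came from GENCODE M21 (GRCm38), where 15517 tested genes matched by identifier.

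Both arms have libraries numbered 1 and 2. How far libraries lay from their group mean was correlated between arms for the same number, with r of 0.783, 0.702, 0.551, 0.537 and 0.468 from day 0 to day 8, so the numbers were read as pairs, from these correlations and not from the labels. A fit with replicate number as a block (5 residual degrees of freedom, 7 for the average) was an alternative. Other alternatives were no filter, a filter at 50, centring on the median, quantile normalization, limma without trend or robustness, recovered reads, a fit of each table alone, all 5 days, the mean of 4 within-day contrasts, and leaving out each library. Fits without the late libraries numbered 2 and the ratio test with swaps within pairs were chosen after seeing the data.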

Additional observations from a re-analysis of the deposited data

Results flagged for a closer look

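Nup37 stood on opposite sides at different days, and the difference between days was not tested for these days as a pair. Both knockdown libraries were below both scrambled ones at day 2, with a ratio of group means of 0.834, and at day 4, with 0.918. Both were above at day 6, with 1.24. With 2 libraries per group such orders are common: at day 2 both knockdown libraries were below in 24.3% of all genes, and at day 6 both were above in 28.5%. In the limma test over days 0, 4, 6 and 8 the change of the Nup37 difference did not pass (limma adjusted p = 1.00).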

How the results depend on the processing

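The average difference of Nup107 kept its direction and its call under all 11 other settings (1.25 to 1.48) and in 16 fits that each left out 1 library (1.37 to 1.53), and that of Nup85 did too (0.23 to 0.32, and 0.25 to 0.32). The setting with all 5 days is among the 11 and brings back the day Nup107 was chosen on, so it is no support for Nup107. With the replicate block the average difference of Nup107 stayed at 1.43. The 8 ratios kept their direction and stayed under 0.05 on deposited log2 values, over all 5 days (which include the day Nup107 was chosen on) and with the replicate block. Of the 8 partners, 1 was called on average, against 2 with the replicate block or without the 3 late scrambled libraries numbered 2, and 1 to 2 with 1 library left out. At day 6 the main count of 1 became 2 with the block and 0 in a fit of that table alone or without late libraries numbered 2, in scrambled cells or both arms (0 to 1 with 1 library left out). In the time course, members called in knockdown cells at day 2 (1 of 9) became 0 with quantile normalization (0 to 1 with 1 library left out). That 1 member was Nup107, which was chosen on day 2. At days 6 and 8 in knockdown cells 0 became 1 with the block or without late scrambled libraries numbered 2. In scrambled cells at day 2, 1 became 3 with a filter at 50 or without those scrambled libraries, 2 with the block, and 0 with quantile normalization or without late libraries of both arms (0 to 2 with 1 library left out). At day 4, 0 became 1 with the block, at day 6 0 became 1 with a filter at 50 and 2 with the block, and at day 8 1 became 0 with no filter or without either set of late libraries (0 to 1 with 1 library left out at each of these 3 days). The block changed no other call beyond those given here and beside the results. The causes were not tested. Background counts moved as well: genes called on average ranged from 1650 to 5076 over the other settings, and at day 8 from 0 in a fit of that table alone to 2817 with the block. Every member had at least 142 reads in each library, and the shares of counting error and of the number of libraries in the precision were not separated.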

Other observations

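2 genes beside Nup107 had levels far above those of the Y complex in both arms. Mdm2, 39.9 kb away, had 2699 to 5080 RPM over the 20 libraries, which put it at place 15 of the 16497 tested genes by mean RPM. Slc35e3, 4.26 kb away, had 1294 to 1836 RPM and place 45. Nup107 itself reached at most 219 RPM.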
